A study of Salix linearistipularis with 24 samples.

Results

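CL2555 is a gene of the root transcriptome of *Salix linearistipularis*, a dioecious willow of saline soils, and its nearest Swiss-Prot protein is the transcription factor MYB13 of Arabidopsis. It was chosen by its ID: all rows whose name began with CL2555 were taken, which gave 10 contigs of 253209 rows, and their FPKM values were summed to 1 of 139844 genes. FPKM is a fragment count divided by the length of the sequence and by the mapped fragments of the library. The cluster stood in the study's list of salt-responsive genes, so its levels in NaCl against control took part in its choice. These levels are described here with no test.

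The 24 root libraries made up 8 groups of 3. They came from female cuttings in control solution and after 6, 12, and 24 h in 100 mM NaCl, and male cuttings in control solution and after the same hours in NaCl. All were hydroponic cuttings of annual shoots with no transgene. The labels name 1 female and 1 male individual as the source of the cuttings. The study's methods name trees of several populations and independent experiments. A difference between sexes therefore cannot be told apart from a difference between a pair of plants. Which plants gave the libraries of each time is not stated, so differences between times may also hold differences between plants or libraries. P-values measure only the spread between libraries, which may be technical. The labels give water as the control treatment and no sampling hour for it.

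MYB proteins bind DNA through 1 or more copies of the MYB repeat. The R2R3 class, to which Arabidopsis MYB13 belongs with its relatives MYB14 and MYB15, is the largest MYB class of plants and holds regulators of phenylpropanoid metabolism, cell identity, and responses to stress. The Pfam entry given for CL2555 is a Myb-like DNA-binding domain. Its gene ontology terms name responses to salt, water deprivation, cold, auxin, jasmonic acid, and ethylene, and these terms came with the protein match and not from willow experiments.

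The sum of FPKM over all rows lay between 663314 and 778064 per library. The number of reads behind a value is unknown, and the lowest non-zero values of the CL2555 contigs were 0.01, 0.08, and 0.09 FPKM. The male 6 h libraries stood apart from all others: their correlation over all tested rows was 0.585 to 0.619 within the group, against 0.955 to 0.969 within the other 7 groups. Root markers were not checked, since most rows carry an ID without a gene name.

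CL2555 was low in control roots of both sexes and stood far above its control level in every NaCl library. In female roots, the control libraries had 13.6, 11.7, and 11.1 FPKM, those at 6 h had 409.6, 400.4, and 416.2 FPKM, those at 12 h had 154.7, 156.6, and 166.4 FPKM, and those at 24 h had 358.0, 357.5, and 352.7 FPKM. In male roots, the control libraries had 12.0, 12.5, and 11.8 FPKM, those at 6 h had 607.8, 256.7, and 125.3 FPKM, those at 12 h had 776.1, 772.2, and 758.4 FPKM, and those at 24 h had 358.6, 361.9, and 345.7 FPKM. The lowest NaCl library of either sex, replicate 3 of the male 6 h group, was still above the highest control library. Libraries of a group lay close together except at 6 h in males, where the 3 values were spread over a wide range.

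**Figure D1:**
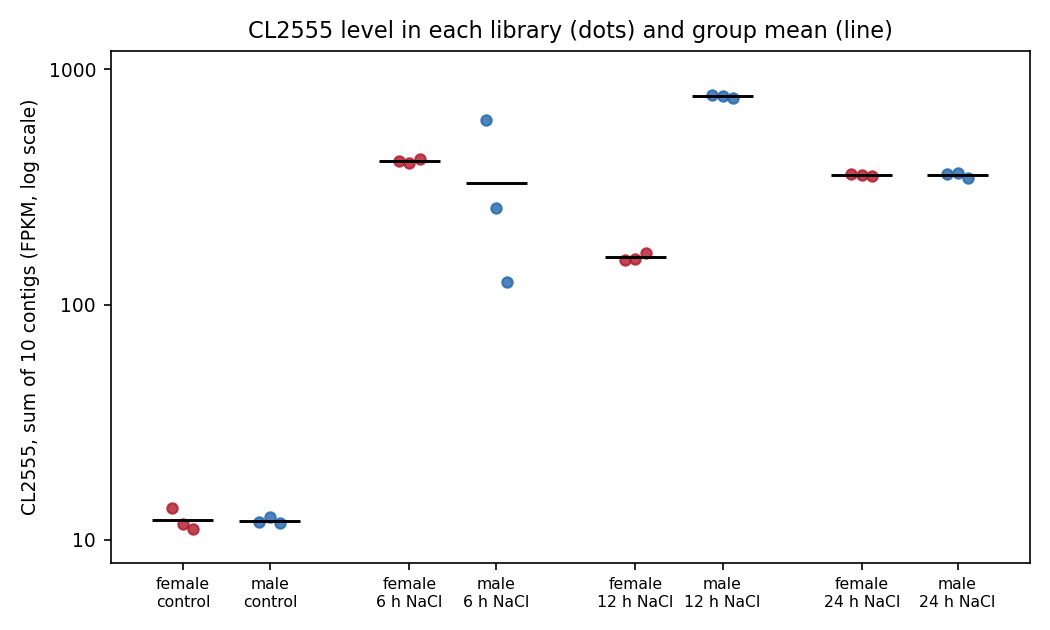
Level of CL2555 (sum of 10 contigs, FPKM, log axis) in each of the 24 libraries; dots are libraries, lines are means of 3. Female roots had a dip at 12 h (159 FPKM) and male roots a peak (769 FPKM), while the sexes met in control solution (12.2 and 12.1 FPKM) and at 24 h (356 and 355 FPKM).

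The time courses of the sexes ran in opposite ways between 6 and 24 h. Female means were 12.2 ± 1.32 FPKM in control solution, 409 ± 7.93 at 6 h, 159 ± 6.25 at 12 h, and 356 ± 2.94 FPKM at 24 h (SD, n = 3 each). Male means were 12.1 ± 0.369, 329.9 ± 249, 769 ± 9.32, and 355 ± 8.60 FPKM at the same points (SD, n = 3 each). The highest group was therefore male 12 h, followed by female 6 h, and neither overlapped with another group next to it in the order of the levels, although the female 6 h values lay within the wide range of male 6 h roots. Female and male 24 h roots overlapped with each other and with male 6 h roots, male 6 h overlapped with female 12 h, and the control groups overlapped with each other.

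As ratios of means, NaCl roots stood 33.6-fold above control at 6 h, 13.1-fold at 12 h, and 29.3-fold at 24 h in females. The ratios were 27.3, 63.7, and 29.4 in males. On the log2(FPKM + 0.5) scale, which understates the change of low genes, the differences from control were 5.02, 3.66, and 4.82 in females and 4.42, 5.94, and 4.82 in males, each with a standard error of 0.31. This error was pooled over all 8 groups and came mostly from the male 6 h libraries: without them it was 0.05 and the values of the other groups did not move. Of all 95202 genes tested, 29.6%, 9.47%, and 9.01% were called higher than control in females at 6, 12, and 24 h, and 13.2%, 25.4%, and 12.1% in males, where called means an adjusted p no higher than 0.05 with a log2 ratio of 1 or more in either direction. The rise of CL2555 took part in its choice, and nothing is read from its place in these shares. Scaling the libraries by the median of ratios, another way to set their levels against each other, gave differences from control of 5.33 at 24 h in females and of 6.74 and 6.02 at 12 and 24 h in males.

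Whether the sexes differed was asked within each time. The gene was listed for its change in NaCl and not for a difference between sexes. The NaCl libraries are those of that choice, however, and the tests were chosen with earlier results of these data known. The p-values at 6, 12, and 24 h are therefore not fully independent of the choice. CL2555 was lower in female roots at 12 h, by -2.27 on the log2 scale (standard error 0.31, adjusted p = 3.14e-06 from limma over all genes), with 159 FPKM in females and 769 FPKM in males, a 4.83-fold lower level in females. All 3 female libraries were below all 3 male libraries. At this time 49.8% of all genes tested were called between sexes and 25.2% were called lower in females, so that a call at 12 h was common. In control solution the ratio was 0.00 (95% interval -0.64 to 0.65, adjusted p = 1 from limma) where 38.1% of genes were called, and at 24 h it was 0.00 (-0.64 to 0.65, adjusted p = 1) where 21.8% were called. These intervals still allow a difference of up to 0.65 on the log2 scale. Both used an error pooled over all 8 groups, which came mostly from the male 6 h libraries. They are therefore wider than the compared libraries alone would give. At 6 h the ratio was 0.60 (-0.05 to 1.25, adjusted p = 0.133 from limma), with 33.5% of genes called. This interval is too narrow for the spread of the male 6 h libraries, as the pooled error understates it.

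The 6 h comparison rested on single male libraries. Female roots had 400.4 to 416.2 FPKM, within the range of 125.3 to 607.8 FPKM of male roots. Without male replicate 1, the ratio was 1.19 and past the threshold (adjusted p = 1.1e-05 from limma), and without male replicate 3 it was 0.05. No direction is therefore given for 6 h. Under the scaling by the median of ratios, female minus male was 0.30, 0.52, -2.65, and -0.39 from control solution to 24 h, of which 12 h alone was called (adjusted p = 1.09e-06 from limma).

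The response to NaCl, that is the difference from control, was compared between sexes in the same model. At 12 h it was lower in females than in males by -2.27 (standard error 0.44, adjusted p = 0.00022 from limma), where 48.5% of all genes were called and 27.6% were lower. The median of all genes was -0.13 in this contrast and -0.38 after scaling by the median of ratios, under which the value of CL2555 was -2.95. Since the control ratio between sexes was 0.00, the -2.27 repeats the 12 h difference between sexes and is not a second result. At 24 h the responses differed by 0.00 (standard error 0.44, 95% interval -0.92 to 0.91, adjusted p = 1 from limma), where 36.5% of genes were called. After scaling by the median of ratios this difference was -0.69 (adjusted p = 0.272 from limma), which was not called either. The 6 h response was the one quoted when the gene was picked, so its difference between sexes, 0.60 (standard error 0.44), was not tested. The 12 and 24 h differences are also built on the NaCl responses for which the gene was listed. Their p-values are therefore not independent of its choice.

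Successive times within a sex are given as descriptions with no test, since they are built on the NaCl levels for which the gene was listed. In females, the log2 ratio of CL2555 was -1.36 at 12 h against 6 h and 1.16 at 24 h against 12 h, and no library of one time overlapped with those of the other. In males the signs were the other way, with 1.51 at 12 h against 6 h and -1.11 at 24 h against 12 h, again without overlap. The male values were the less firm. Without male 6 h replicate 3 the 12 h against 6 h ratio was 0.96, without replicate 1 it was 2.10, and after scaling by the median of ratios the 24 h against 12 h ratio was -0.72.

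The sum hides a difference in which contigs carried it. A contig is 1 assembled transcript of the cluster, and contigs of a cluster can be splice forms, alleles, or close copies of a gene, which cannot be told apart here. They share sequence, and the sources used here do not say how reads that fit several contigs were divided, so the split between contigs is less certain than the sum. The 10 contigs averaged between 0.516 FPKM (contig 8) and 128 FPKM (contig 7) over the 24 libraries, and all 10 passed the filter of at least 1 FPKM in at least 3 libraries. Contig 7, the most abundant, was above 0 in all libraries, whereas contig 8 was listed at 0 in 11 of them.

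**Figure D2:**
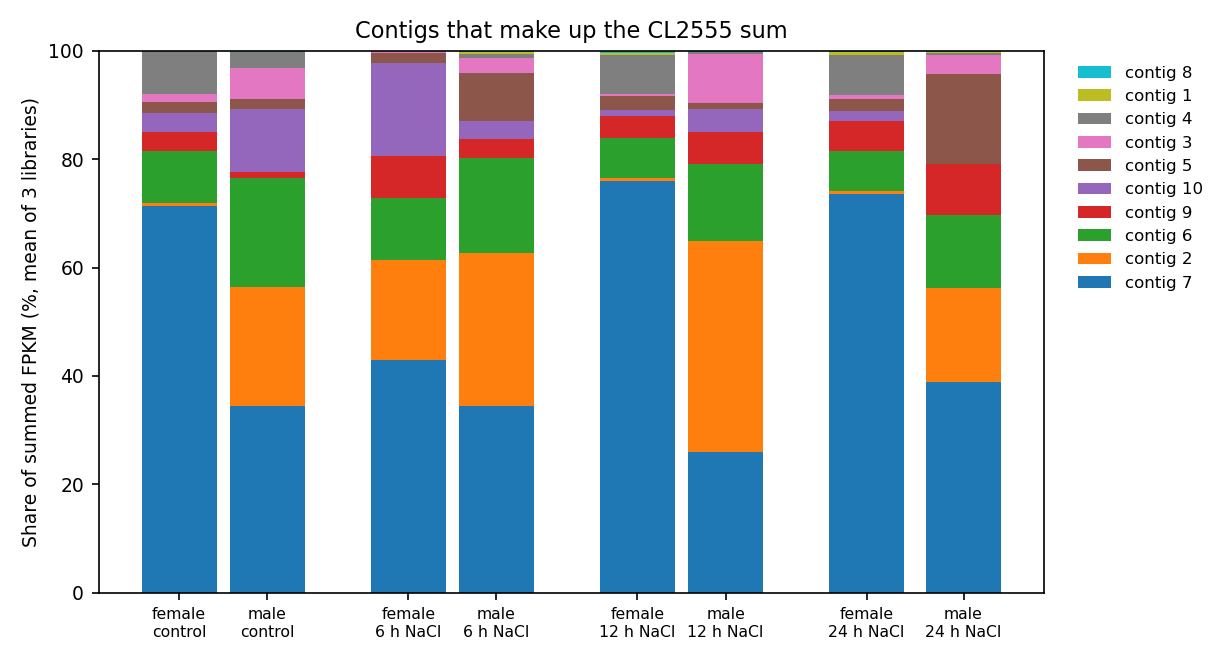
Share of each of the 10 contigs in the summed FPKM of CL2555 (%, mean of 3 libraries), by time and sex, contigs stacked by their mean level. Contig 7 held 71.3% to 76.0% of the sum in female control, 12 h, and 24 h roots but 25.9% to 38.9% in male groups, and contig 2 held 39.0% in male 12 h roots and 0.615% in female 12 h roots.

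Contig 7 was the leading contig of every female library. From control solution to 24 h, its share of the sum was 71.3%, 42.9%, 76.0%, and 73.6% in female roots, against 34.4%, 34.5%, 25.9%, and 38.9% in male roots. In FPKM, it had 9.51, 8.29, and 8.15 in female control libraries against 4.11, 3.50, and 4.80 in male control libraries. At 12 h it had 118.9, 120.8, and 122.9 FPKM in female libraries, against 199.8, 196.7, and 201.8 FPKM in male libraries. At 24 h the order was the other way, with 263.1, 261.9, and 260.7 FPKM in female libraries and 133.1, 132.3, and 149.1 FPKM in male libraries. Libraries of the sexes did not overlap at any of these points, yet contig 7 was not called between sexes at any time with FPKM as deposited. Its female minus male log2 ratios were 0.99, 0.92, -0.72, and 0.92 in control solution and at 6, 12, and 24 h, all under the threshold of 1 (adjusted p = 0.015, 0.0293, 0.0609, and 0.0299 from limma over all rows). These values lay near the threshold, and the call changed with the processing. After scaling by the median of ratios, contig 7 was called higher in females in control solution (1.24, adjusted p = 0.00604 from limma) and lower at 12 h (-1.10, adjusted p = 0.0102 from limma), and with a pseudocount of 0.1 it was called in control solution (1.05, adjusted p = 0.0109 from limma). Without female replicate 2, female replicate 3, or male replicate 3, the control ratio was 1.01 to 1.09 and past the threshold. At 6 h the ratio ran between 0.40 and 1.53 with single libraries left out, and was called without male replicate 1 (1.53, adjusted p = 2.4e-07 from limma).

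Contig 2 showed the widest gap between sexes. At 12 h it had 0.63, 1.45, and 0.85 FPKM in female libraries and 300.7, 307.5, and 292.1 FPKM in male libraries, where it led the sum in all 3. The log2 ratio was -7.71 (standard error 0.34, adjusted p = 3.78e-13 from limma over all rows). It was also called lower in females in control solution (-2.48, adjusted p = 4.71e-06 from limma) and at 24 h (-4.70, adjusted p = 1.47e-09 from limma). It was listed at 0 in 2 of the 3 female control libraries and had 2.16 to 3.07 FPKM in male control libraries, and at 24 h it had 1.35 to 2.73 FPKM in female and 52.5 to 66.5 FPKM in male libraries. At 6 h alone the sexes were near each other, with 70.4 to 79.6 FPKM in female libraries and 45.0 to 162.1 FPKM in male libraries (log2 ratio 0.06, adjusted p = 0.926 from limma). Contig 2 was at or below 2.73 FPKM in all female libraries other than those of 6 h.

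Contigs 6, 9, 3, and 5 were each high in a male group. Contig 6 was high in males at 12 h, as it had 9.77 to 14.7 FPKM in female and 107.6 to 111.1 FPKM in male 12 h libraries. Contig 9 was high in males at 12 h, with 6.14 to 7.03 FPKM in female and 41.5 to 47.2 FPKM in male libraries. At 6 h it was called higher in females (1.85, adjusted p = 5.4e-05 from limma). It had 31.7 to 32.0 FPKM in female and 4.23 to 15.4 FPKM in male 6 h libraries. The fit on the compared groups alone did not call it. Contig 3 was high in males at 12 h, with 0.23 to 0.86 FPKM in female and 66.6 to 74.5 FPKM in male libraries. Contig 5 was high at 24 h in males, with 8.09 to 8.80 FPKM in female and 53.3 to 61.7 FPKM in male libraries.

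Contigs 10 and 4 also ran the other way at some times. Contig 10 had 67.2 to 73.1 FPKM in female 6 h libraries and 1.37 to 2.34 FPKM in female 12 h libraries. In male 6 h roots, replicate 1 had 59.1 FPKM of it while replicates 2 and 3 had 0.01 and 0 FPKM, and at 24 h it was listed at 0 in 2 of 3 male libraries. Contig 4 was listed at 0 in all 3 female 6 h libraries, although it had 0.88 to 1.13 FPKM in female control, 10.9 to 12.6 FPKM in female 12 h, and 24.4 to 30.4 FPKM in female 24 h libraries. A value of 0 in this table does not show that the transcript was absent. Contigs 1 and 8 stayed at or below 2.24 FPKM in every library.

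Counted over the 10 contigs, 0 were called higher and 1 lower in females than in males in control solution, where 41.4% of all 181249 rows tested were called (22% higher and 19.4% lower). At 6 h, 2 were higher and 1 lower, against 32% of rows called (21.7% higher and 10.3% lower). At 12 h, 1 was higher and 5 were lower, against 51.5% of rows called (27% higher and 24.5% lower), and at 24 h, 2 were higher and 3 lower, against 29.1% of rows called (17.5% higher and 11.6% lower). The contigs called thus numbered 1, 3, 6, and 5 of 10 at these points, and 2, 3, 7, and 7 of 10 after scaling by the median of ratios. That scaling added contig 7 at 12 h (1 higher and 6 lower), and contigs 6 (-1.24, adjusted p = 0.00467 from limma) and 9 (-1.13, adjusted p = 0.00208 from limma) at 24 h (2 higher and 5 lower). With 10 contigs that share reads, nothing particular to CL2555 is read from them.

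The contigs lower in females at 12 h were contig 2, contig 3 (-6.11), contig 10 (-3.93), contig 6 (-3.18), and contig 9 (-2.69), and contig 4 was higher (2.01). At 24 h, contig 4 (4.24) and contig 10 (3.49) were higher in females, and contig 2, contig 5 (-2.73), and contig 3 (-2.45) were lower. Contig 10 was therefore lower in females at 12 h and higher at 24 h. It was also called higher at 6 h (4.82), but no direction is given for that time. Male replicate 1 had 59.1 FPKM then, near the female 67.2 to 73.1 FPKM, against 0.01 and 0 FPKM in male replicates 2 and 3. Not all of these calls were firm. Contig 4 at 12 h lost its call with a pseudocount of 0.1 (2.16, adjusted p = 0.0505 from limma). Contig 5 at 24 h lost its call with that pseudocount (-2.78, adjusted p = 0.118 from limma) and when any 1 of the 6 libraries was left out (adjusted p = 0.0654 to 0.0767 from limma), and contig 3 at 24 h when female replicate 3 was left out (adjusted p = 0.0584 from limma). Contig 4 at 6 h, the only one called lower in females then (-1.76), had adjusted p = 0.0662 to 0.0664 (limma) without any 1 of the female 6 h libraries and a ratio of -0.49 without male 6 h replicate 1. The count at 6 h was 6 contigs without male 6 h replicate 3 and 0 in a fit on the 2 groups alone.

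**Figure D3:**
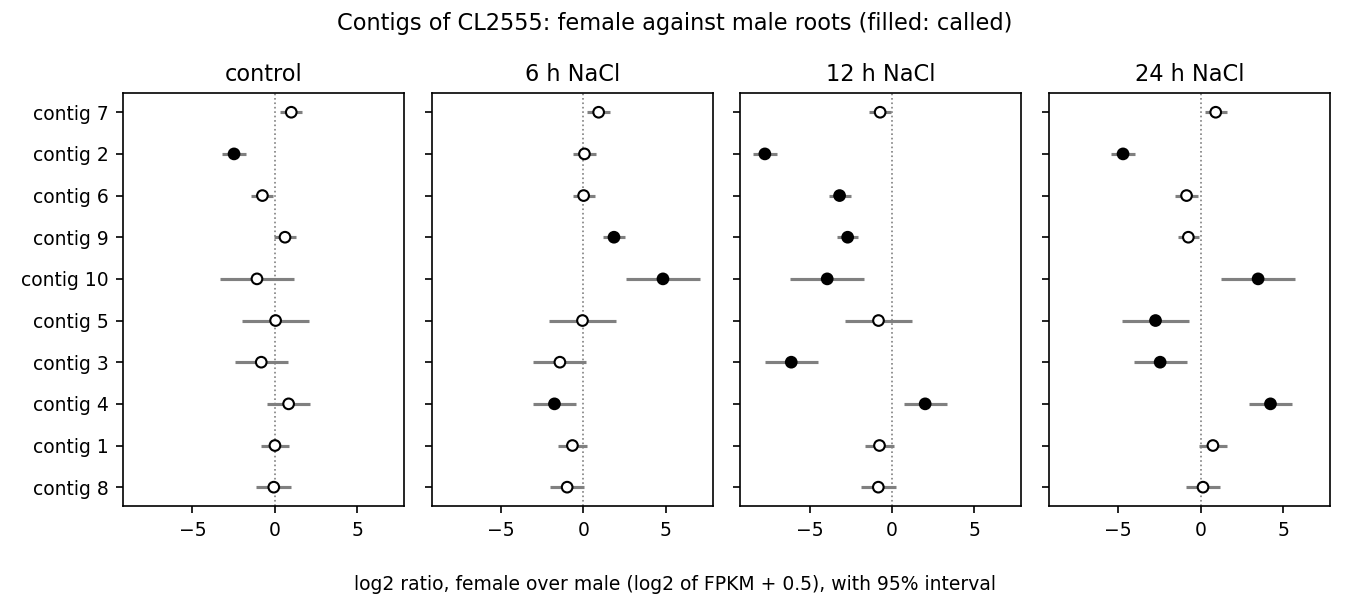
Log2 ratio of female over male roots for each contig of CL2555 in control solution and at 6, 12, and 24 h of NaCl, points with 95% intervals, filled where called. At 12 h, 5 contigs lay left of 0 past the threshold, led by contig 2 at -7.71, and at 24 h contig 4 (4.24) and contig 2 (-4.70) lay furthest apart.

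The difference of the sums at 12 h lay mostly outside contig 7. The other 9 contigs together had 35.8, 35.8, and 43.4 FPKM in female libraries and 576.3, 575.5, and 556.6 FPKM in male libraries. Contig 2 alone stood 299 FPKM lower in females, contig 6 stood 97.1 FPKM lower, contig 7 stood 78.6 FPKM lower, and contig 3 stood 69.2 FPKM lower, out of 609.6 FPKM for the sum. If contig 7 was used in place of the sum, female minus male at 12 h was -0.72 (adjusted p = 0.0567 from limma) with FPKM as deposited. After scaling by the median of ratios the row of contig 7 was itself called at 12 h (-1.10), so whether a call needs the other contigs depends on the scaling. At 24 h, equal sums were made of unequal parts: the other 9 contigs had 94.2 ± 1.93 FPKM in females and 217.2 ± 18.0 FPKM in males (SD, n = 3 each), while contig 7 had 261.9 ± 1.20 and 138.2 ± 9.47 FPKM (SD, n = 3 each) in the same order.

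The shift between contigs can be put as 1 number, the share of the sum that would have to move to other contigs for the shares of a pair of groups to match. Between female and male roots it was 44.7% in control solution, 24.1% at 6 h, 58.9% at 12 h, and 43.9% at 24 h. Between libraries of 1 group it was 1.43% to 8.40%, except in male control (15.2% to 21.8%) and male 6 h roots (20.7% to 30.05%). The shift between sexes was larger than the spread between libraries in control solution and at 12 and 24 h, and was not larger than it at 6 h. Such shifts were common in the table. Over clusters with at least 5 contigs and 10 FPKM in both groups, the median shift between sexes was 37.4%, 27.5%, 42.6%, and 38.6% at these points. At 12 h the shift was below that of CL2555 in 80.1% of 4009 clusters. In control solution and at 6 and 24 h it was below that of CL2555 in 65.4%, 40.4%, and 61.5% of clusters.

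Within females, the shares at 12 and 24 h were close to those of control roots, and 6 h stood apart. The shift was 37.5% at 6 h, 6.65% at 12 h, and 5.67% at 24 h against female control, and 2.81% at 24 h against 12 h. The median cluster had 37.7%, 9.09%, and 11.4% against female control and 7.97% for 24 h against 12 h, so this pattern was that of the table as a whole. Within males, the shift against male control was 12.9% at 6 h, 25.3% at 12 h, and 28.0% at 24 h, with medians over clusters of 23.6%, 36.2%, and 39.4%. The medians of female 6 h and of male 12 and 24 h roots against control were of the size seen between sexes (27.5% to 42.6%). Whether differences between plants or libraries had a part in these shifts was not tested.

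The study's list of salt-responsive genes held 6 further genes matched to MYB or MYB-like proteins, which are given here as a list with CL2555. All are matched to proteins of the MYB-related class, which carry 1 repeat. CL5344 is matched to rice MYBS3, a repressor of alpha-amylase genes that acts in cold tolerance, and Unigene75289 to rice MYBS1, an activator of alpha-amylase genes under sugar starvation. CL6070 is matched to potato MYB1R1, which has a role in drought tolerance. Unigene12477, Unigene37971, and Unigene43889 are matched to Arabidopsis KUA1, a regulator of cell expansion in leaves.

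CL5344 and Unigene43889 had time courses like that of CL2555. CL5344 had 1.29 to 1.94 FPKM in control solution, 18.8 to 19.8 at 6 h, 11.3 to 12.9 at 12 h, and 25.2 to 26.8 FPKM at 24 h in females, against 1.78 to 2.22, 7.66 to 50.8, 69.1 to 69.9, and 23.2 to 26.2 FPKM in males. Unigene43889 had 8.96 to 10.5, 80.5 to 84.3, 57.1 to 59.5, and 85.7 to 91.4 FPKM at these points in females, against 7.82 to 10.2, 75.0 to 215.7, 237.3 to 243.3, and 127.3 to 138.1 FPKM in males. Both were at their lowest NaCl level at 12 h in females and at their highest mean at 12 h in males. At 12 h both were lower in female roots, CL5344 by -2.50 (adjusted p = 8.47e-06 from limma) and Unigene43889 by -2.04 (adjusted p = 4.35e-07 from limma).

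The other 4 MYB genes did not share this course in both sexes. Unigene12477 also had its lowest NaCl levels at 12 h in females, with 29.8 to 30.4 FPKM. It had 41.1 to 44.4 FPKM at 6 h and 53.2 to 53.8 FPKM at 24 h. Its male mean was not highest at 12 h. Unigene12477 was higher in females at every time, by 3.0, 2.45, 1.65, and 2.31 in control solution and at 6, 12, and 24 h (highest adjusted p = 0.000983 from limma). In control solution it had 3.67 to 3.88 FPKM in female libraries, against 0, 0, and 0.1 FPKM in male libraries, so the size of that ratio was set by the pseudocount (4.93 with 0.1 and 2.20 with 1). At 6 h, in the fit on the compared groups alone, its adjusted p was 0.0757 (limma). Unigene75289 had lower means in NaCl than in control solution at every time in both sexes, with 1.96 ± 0.301 FPKM in females and 0.183 ± 0.0950 FPKM in males at 12 h (SD, n = 3 each). Among the NaCl times its mean was highest at 12 h in females and lowest at 12 h in males, the inverse of CL2555. It was higher in females at 12 h by 1.85 (adjusted p = 3.05e-07 from limma). CL6070 had 79.4 ± 1.89 FPKM in females and 123 ± 2.99 FPKM in males at 12 h (SD, n = 3 each) and was not called between sexes at any time, its largest ratio being 0.75 in control solution, although it was called in control solution and at 12 and 24 h after scaling by the median of ratios (1.05, -1.01, and -1.09). Unigene37971 stayed between 4.35 and 16.3 FPKM in all libraries.

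Of the 6 further MYB genes, 2 were called higher and 2 lower in females at 12 h, and 1 was higher and 0 were lower at each other point. Of all genes, 22.4%, 25.3%, 24.6%, and 13.7% were called higher in control solution and at 6, 12, and 24 h, and 15.7%, 8.19%, 25.2%, and 8.08% lower. The median log2 ratios over the 6 were 0.31, -0.20, -0.29, and 0.14 in control solution and at 6, 12, and 24 h. The medians over all genes tested were 0.05, 0.16, 0.05, and 0.08. The difference of the response at 12 h was called lower in females for 4 and higher for 1 of the 6, against 27.6% and 20.9% of all genes. All 6 were listed for their response to salt, so the calls on responses are not independent of their choice. It was -2.26 for CL5344, -2.16 for Unigene43889, -1.37 for CL6070, -1.35 for Unigene12477, and 1.81 for Unigene75289. The call of Unigene12477 (adjusted p = 0.0437 from limma) was lost when any 1 of 12 libraries was left out (adjusted p = 0.0511 to 0.0881) and with no filter on low values (adjusted p = 0.0563). Its size followed the pseudocount through the male control level near 0, with -3.24 (adjusted p = 0.000231) at 0.1 and -0.60 (adjusted p = 0.342) at 1, so no size is read from it. At 24 h, 1 of the 6 was lower, CL6070 by -1.44 (adjusted p = 0.000576 from limma), against 17.8% of all genes. With a pseudocount of 0.1, Unigene12477 was also lower (-2.58, adjusted p = 0.00231 from limma) and Unigene75289 higher (1.20, adjusted p = 0.0334 from limma), and after scaling by the median of ratios Unigene43889 was also lower (-1.38, adjusted p = 0.00875 from limma).

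**Figure D4:**
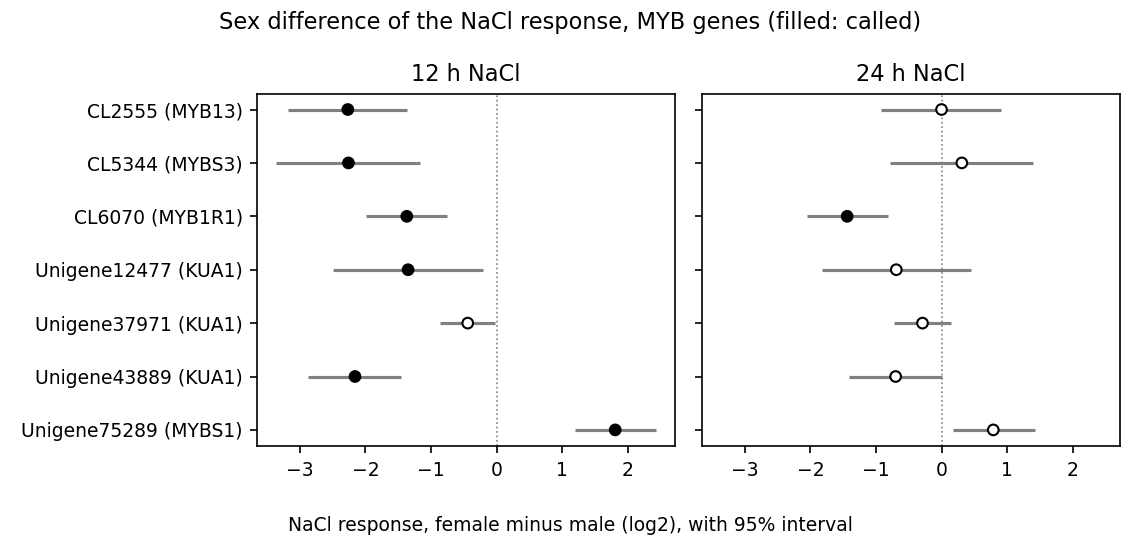
Difference between sexes of the NaCl response (female minus male, log2 scale) at 12 and 24 h for CL2555 and 6 further MYB genes, points with 95% intervals, filled where called. At 12 h CL2555 (-2.27), CL5344 (-2.26), and Unigene43889 (-2.16) lay together on the left and Unigene75289 (1.81) on the right, and at 24 h only CL6070 (-1.44) was called.

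Across the 8 group means of log2(FPKM + 0.5), the named genes most like CL2555 were sought among the 145 tested genes of the study's annotated lists. These r are descriptions over 8 points that share the same libraries. Unigene43889 (r = 0.983) and CL5344 (r = 0.983) came first, followed by CL3639 (r = 0.978), matched to Arabidopsis WRKY33, a regulator of defence against fungi and of salt and heat responses. CL12066 (r = 0.946) and CL14675 (r = 0.939) were next and are matched to small heat shock proteins of class III and class I, chaperones that hold unfolding proteins. The same 5 genes were the most alike when the male 6 h group was left out. Among the MYB genes, r with CL2555 was 0.819 for CL6070, 0.776 for Unigene37971, 0.737 for Unigene12477, and -0.866 for Unigene75289.

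CL3639 shared the dip and the peak of CL2555 at another level. Its means were 64.9 FPKM in control solution, 1387 at 6 h, 986 at 12 h, and 1728 FPKM at 24 h in females, and 29.6, 1568, 2078, and 1781 FPKM in males. In CL12066 the dip at 12 h in females was followed by a higher level at 24 h than at 6 h, with 1.69, 43.2, 23.0, and 97.3 FPKM from control solution to 24 h, against 1.08, 46.3, 306.8, and 265.5 FPKM in males. CL14675 was far lower in level, with 6.94 ± 1.16 FPKM in females and 79.5 ± 5.59 FPKM in males at 12 h (SD, n = 3 each). Over all 95198 other genes with a varying level, 906 (0.952%) had r of at least 0.9, and 6 of the 145 named genes (4.14%) did. The named genes were listed for their response to salt, so nothing is read from the gap. The closest of all were Unigene24769 (r = 0.997) and CL8108 (r = 0.996), which have no name in the lists used here. CL8108 had 421.5 ± 11.8 FPKM in females and 1789.9 ± 14.5 FPKM in males at 12 h (SD, n = 3 each).

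**Figure D5:**
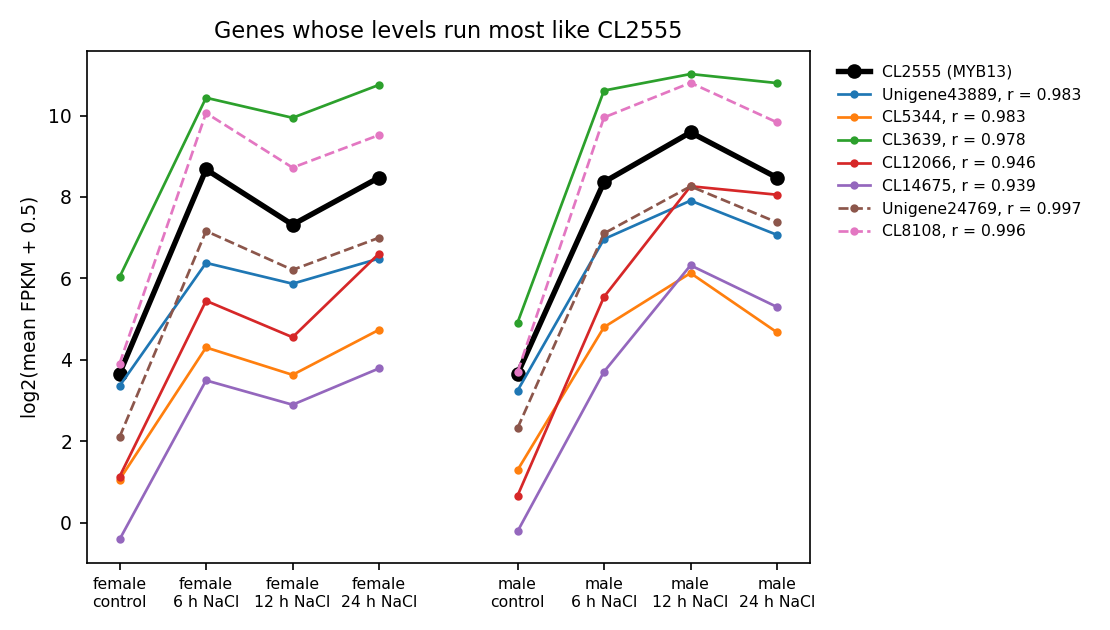
Log2 of the mean FPKM plus 0.5 in the 8 groups for CL2555 (thick black line), the 5 named genes most like it (solid lines) and the 2 genes most like it in the whole table (dashed lines), with r over 8 group means. All 8 lines have a dip at 12 h in females and their highest point at 12 h in males.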

How the data were processed

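Roots of 24 libraries were compared. Reads were assembled by the authors with Trinity, and FPKM values of contigs and single unigenes were deposited as a single file (RPKM in the study's methods). The sources used here name neither aligner nor quantifier. FPKM were used as deposited, with the contigs of a cluster summed. Genes of at least 1 FPKM in 3 or more libraries (95202 genes, or 181249 rows for contigs) were tested on log2(FPKM + 0.5) in limma 3.58.1 (lmFit and eBayes with trend, R 4.3.3), with 1 mean per group for the 8 groups and Benjamini-Hochberg adjustment per comparison. Calls needed an adjusted p no higher than 0.05 and a change of 1 or more in log2, after the study's methods. The test was checked on simulated data with the same spread in every group, estimated without the male 6 h libraries. That check does not cover the wider spread of the male 6 h group.

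The gene, the list of MYB genes, and the tests were chosen with earlier results of these data known. Differences from control, and those between successive times, are given without a test. Named genes were CL2555 with its contigs, the 6 further genes matched to MYB proteins in the study's list of salt-responsive genes, the 5 genes of its annotated lists most like CL2555 (Pearson r over 8 group means), and the 2 most like it among all genes. Protein matches are those of the study's annotation, and sequences of the contigs were not used here. Alternatives were pseudocounts of 0.1 and 1, no filter on low values, library scaling by median ratios, fits on the compared groups, a block on the replicate number, libraries left out, and contig 7 in place of the sum. Taking each group except male 6 h as 1 sample was added after the data were seen. Tables and plots were made with data.table (version 1.17.8), Python 3.11.15, pandas 2.3.3, numpy 2.4.6, and matplotlib 3.10.9.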

Additional observations from a re-analysis of the deposited data

Results flagged for a closer look

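The response to NaCl was called different between sexes, female minus male, for 6 of the 7 MYB genes (limma on the difference itself, adjusted over all genes). These genes were listed for their response to salt, so the calls are not independent of their choice. At 12 h, where 48.5% of all genes were called, the difference was -2.27 for CL2555 (adjusted p = 0.00022), -2.26 for CL5344 (adjusted p = 0.0012), -2.16 for Unigene43889 (adjusted p = 2.33e-05), -1.37 for CL6070 (adjusted p = 0.000621), -1.35 for Unigene12477 (adjusted p = 0.0437, and -3.24 or -0.60 with a pseudocount of 0.1 or 1), and 1.81 for Unigene75289 (adjusted p = 4.22e-05). The call of Unigene12477 was lost when any 1 library of the contrast was left out, with no filter on low values, and with a pseudocount of 1. At 24 h the difference was -1.44 for CL6070 (adjusted p = 0.000576). Groups of 3 libraries were too small to look for single outlying libraries.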

How the results depend on the processing

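Female minus male at 12 h kept its call under other pseudocounts, no filter, scaling, the fit on the compared groups, and every library left out (-2.30 to -2.25), but not with contig 7 in place of the sum (-0.72, adjusted p = 0.0567 from limma). With contig 7 alone, the differences from control were 4.27 at 6 h in females and 5.44 and 4.91 at 12 and 24 h in males, and the ratios of successive times were -0.54 for female 12 h against 6 h and -0.53 for male 24 h against 12 h. Scaling by the median of ratios gave 5.33 at 24 h in females and 6.74 and 6.02 at 12 and 24 h in males against control, and -0.72 for male 24 h against 12 h. Male 12 h against control was 5.98 with a pseudocount of 0.1 and 5.88 with 1. In the fit on the compared groups, male 12 h against 6 h (1.51) had a standard error of 0.65, and 0 contigs were called between sexes at 6 h. Contigs called between sexes in control solution numbered 3 with a pseudocount of 0.1 and 2 with scaling, with the compared groups alone, or without the male 6 h libraries.

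With each group except male 6 h taken as 1 sample, which was added once the data had been seen, limma called 0 contigs between sexes at each time. Female minus male at 12 h (-2.27, adjusted p = 0.516) and the difference of responses at 12 h (-2.28, adjusted p = 0.746) were then not called. The ratios of successive times were -1.36 for female 12 h against 6 h, 1.16 for female 24 h against 12 h, 1.51 for male 12 h against 6 h, and -1.11 for male 24 h against 12 h, with standard errors of 1.14 or more. Only the male 6 h libraries gave a spread in this fit. This fit still called 6413 genes between sexes at 12 h.

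Leaving out each library gave 0.05 to 1.19 for female minus male at 6 h, 0.96 to 2.10 for male 12 h against 6 h, 2 to 6 contigs called between sexes at 6 h, 3 to 4 at 24 h, and 1 to 2 in control solution. The block on the replicate number left female minus male at 12 h at -2.27 (adjusted p = 4.52e-06) and changed no call of CL2555. Replicate numbers did not pair the samples: deviations of same-numbered libraries had r from -0.01 to 0.02 over 84 pairs, and 11 of 24 libraries were closest to their own number. Scaling moved the share of higher calls among all genes, for female minus male at 24 h to 51.2%, against 62.9% unscaled, and for the differences of responses at 12 and 24 h to 30.4% and 35.9%, against 43% and 51.3%. Without read numbers, the counting error of low contigs is unknown.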
